A study of Solanum lycopersicum and Solanum pimpinellifolium with 30 samples.

Results

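A set of 5 plant defence genes was followed across the ripe fruit of 10 tomato cultivars: the chitinase genes CHI14, CHI9 and CHI17, the osmotin-like gene NP24-I and the stress-induced gene TSI-1. They were chosen by their symbols in the platform annotation, from 802 gene symbols in all. Each was measured by 1 of the 10038 probe sets tested (10209 with the controls). The samples were 3 biological replicates of each cultivar. LA1589, the only wild accession, belongs to Solanum pimpinellifolium, a tomato species with small fruit. The other 9 are Andean landraces of Solanum lycopersicum, numbered 571, 572, 549, 557 and 560, and 3842, 3836, 3815 and 3806. Plants grew in one field season in randomised plots, 3 of 6 plants per accession, with no treatment, and all fruit was picked at the mature red stage. The epicarp, the locule tissue and the seeds were cut away, and RNA of the remaining pericarp was hybridised to an Affymetrix tomato array, 1 array per replicate. Whether an array holds 1 fruit, 1 plant or a pool of plants is not given in the sources used here.

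Pathogenesis-related proteins are made by plants after attack by microbes, after wounding and under salt or drought, and some are also made in the course of fruit ripening. Chitinases cut chitin, the polymer that stiffens the walls of fungi, and often act together with glucanases, which cut the glucan of the same walls. Osmotin-like proteins belong to the thaumatin-like family, whose members can make fungal membranes leak and which accumulate in salt-stressed tissue. TSI-1 is related to the small intracellular pathogenesis-related proteins of the PR-10 family, and its name stands for tomato stress-induced.

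In the assembly SLM_r2.1, CHI14 lies on chromosome 2 from 49437787 to 49439565 and CHI17 on the same chromosome from 62770900 to 62772187. CHI9 lies on chromosome 10 from 55998161 to 55999486. NP24-I lies on chromosome 8 from 66041684 to 66042671, and TSI-1 on chromosome 9 from 67830916 to 67832273. The positions are those of whole genes, and the probe positions within them were not used here.

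The values below are log2 signals after quantile normalisation between arrays, so that a difference of 1 is a doubling of the signal. The background of an array was the percentile 95 of its 63 probe sets for foreign reporter sequences, and it ran from 0.37 to 2.41. All 7 markers of ripe pericarp that were measured, among them the ripening genes E8, PG2 and Psy1, were above background on all 30 arrays. Their levels were not equal. Of the 7, RIN was called higher in LA1589 (log2 difference 0.71), E8 (-2.53) and TDR4 (-0.90) lower, and 4 were not called. The F test of equal landrace means called 4 of the 7, with a range of 4.30 for Psy1. Over all tested probe sets these tests called 15.5% and 39.1%. The part of ripening stage in the results was not tested. The seed marker TAS14 and the 3 markers of epidermis were above background on fewer than 15 arrays each. Of the 4 markers of locule or green tissue, 3 were above background on all 30 arrays, and the F test of equal landrace means called all 4. The mean of those 4 ran from 4.03 to 6.02 on LA1589 arrays and from 2.92 to 7.29 on landrace arrays, and its part in the results was not tested. In tissue, fewer cells that express a gene and less of its RNA per cell cannot be told apart.

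One array stood apart and touches 3 of the 5 genes. Replicate 1 of landrace 557 had the lowest mean correlation with the arrays of its own cultivar (0.917, where the highest of the 30 was 0.990). It also had the highest background, 2.41 against at most 1.34 on the other 29, and the lowest share of probe sets above background, 40.2% against at least 52.2%. Replicates 2 and 3 of 557 had the next lowest correlations (0.938 each), with backgrounds of 1.34 and 1.27. For the tests of the 5 genes, results that rest on replicate 1 of 557 are given with and without it.

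The wild accession carried more signal than the landraces for 4 of the 5 genes. CHI14, NP24-I, CHI9 and CHI17 were higher in LA1589 by between 2.44 and 3.87 (log2 difference), and TSI-1 did not pass the test. Over all tested probe sets, limma called 1560, or 15.5%, in either direction at an adjusted p under 0.05, and 8.58% higher. With 1 accession of the wild species, the difference is that between this accession and 9 landraces. When the spread between the 9 landrace means was taken as the error, CHI14 alone of the 4 kept its call. Its landrace means had an SD of 0.42, with 10 landrace arrays at background. That SD was 1.41 for CHI9, 1.43 for CHI17 and 1.65 for NP24-I.

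CHI14, a chitinase gene, had signals of 5.34, 3.41 and 5.63 in the 3 replicates of LA1589. Over the 27 landrace arrays its lowest signal was 0.24, its median 0.81 and its highest 2.61. All 3 LA1589 arrays lay above all 27 landrace arrays, a separation that 1.19% of the tested probe sets showed. The means were 4.79 ± 1.21 (SD, n = 3) in LA1589 and 0.92 over the 9 landraces, a difference of 3.87 ± 0.33 (SE; limma adjusted p = 6.7e-09). That SE rests on the spread pooled over all 10 cultivars, an SD of 0.58. The SD was highest in LA1589 and lowest in 557, at 0.09, so the SE understates the spread of the LA1589 arrays. As 10 landrace arrays were at background, among them all 3 of 557 and of 3836, the fold is given as a bound: CHI14 was at least 13.0-fold higher. The lowest of the 3 LA1589 arrays was replicate 2, and without it the difference was 4.57. With the spread between landrace means as the error, the adjusted p was 0.0016.

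Among the landraces CHI14 was near background. The highest landrace means were 1.63 ± 0.60 in 549 and 1.56 ± 0.91 in 560, and the lowest was 0.50 ± 0.22 in 571 (SD, n = 3 each). The F test for equal landrace means gave an adjusted p of 0.0639 over a range of 1.12, so no difference was called. It passed without 1 of 5 single arrays, namely replicate 3 of 549 (adjusted p = 0.0261), replicate 2 (0.0455) or 3 (0.0397) of 560, replicate 1 of 3815 (0.0426) or replicate 1 of 3842 (0.0384). Down the order of the 10 cultivars, LA1589 stood clear of 549, and the ranges of the 3 arrays overlapped in the other 8 neighbouring pairs.

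**Figure D1:**
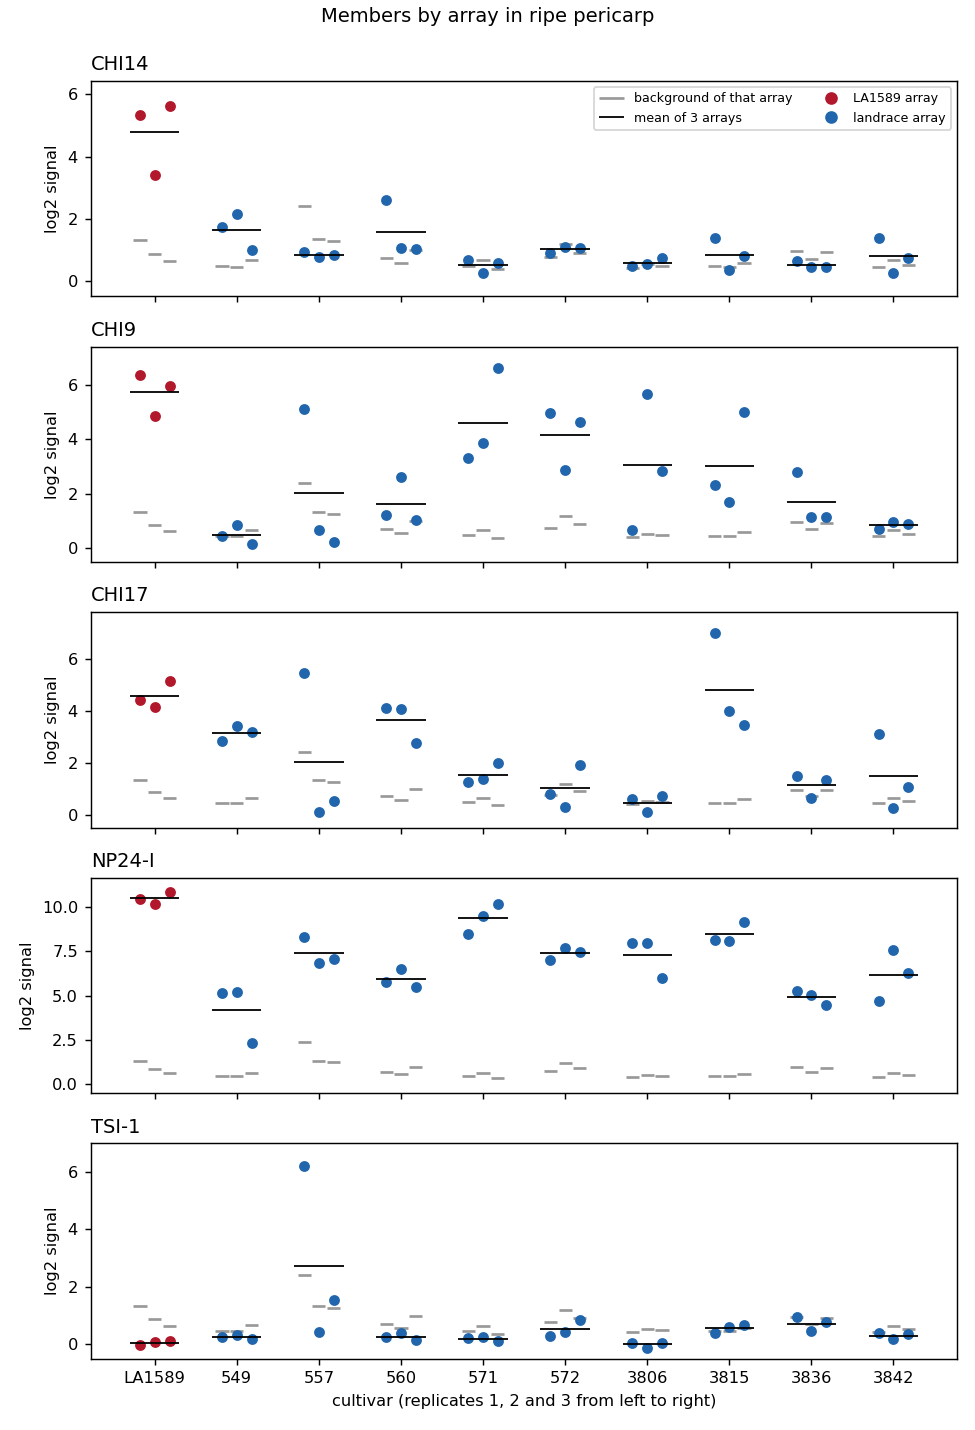
Log2 signal of the 5 genes on every array, LA1589 at the left and the 9 landraces to its right, with the mean of 3 arrays as a black line and the background of each array as a grey tick. CHI14 and NP24-I put all 3 LA1589 arrays above all 27 landrace arrays, TSI-1 is high on 1 array of 557, and the 3 arrays of a landrace often lie far apart for CHI9 and CHI17.

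NP24-I, the osmotin-like gene, was the only one of the 5 above background on all 30 arrays. Its signals were 10.48, 10.20 and 10.85 in LA1589. Over the landrace arrays the lowest was 2.33, the median 7.04 and the highest 10.16. All 3 LA1589 arrays thus exceeded all 27 landrace arrays, though the lowest of them was only just above the highest, which was replicate 3 of landrace 571. The means were 10.51 ± 0.33 (SD, n = 3) and 6.80, and NP24-I was higher in LA1589 by 3.71 ± 0.52 (SE; limma adjusted p = 1.59e-05), or 13.0-fold. With the spread between landrace means as the error the adjusted p was 0.401.

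NP24-I also differed among the landraces. Its means ran from 4.22 ± 1.64 in 549 to 9.38 ± 0.86 in 571 (SD, n = 3 each), a range of 5.16 or 35.8-fold (F test, adjusted p = 0.000154). The 3 arrays of 571 read 8.46, 9.52 and 10.16, and those of 549 read 5.16, 5.18 and 2.33. The F test called 39.1% of all tested probe sets, and 2 of the 5 genes, NP24-I and CHI17. Without replicate 3 of 549, the lowest array, the NP24-I range was 4.44. Second to 571 among the landraces was 3815 with 8.13, 8.07 and 9.17. Next came 557 with 8.30, 6.86 and 7.08, landrace 572 with 7.04, 7.66 and 7.48, and 3806 with 7.96, 7.99 and 6.01. These 3 landraces had means within 0.1 of each other. Below them lay 3842 with 4.70, 7.57 and 6.30, then 560 with 5.75, 6.50 and 5.50, and 3836 with 5.29, 5.04 and 4.49. Of the 9 neighbouring pairs in the order of cultivars, 7 overlapped in the ranges of their arrays. The gaps lay between LA1589 and 571 and between 560 and 3836.

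CHI9, a chitinase gene, had signals of 6.37, 4.84 and 5.95 in LA1589. The landrace arrays ran from 0.18 over a median of 1.69 to 6.60, so the groups overlapped: the lowest LA1589 array exceeded 22 of the 27. The means were 5.72 ± 0.79 (SD, n = 3) in LA1589 and 2.39 over the landraces, and CHI9 was higher by 3.33 ± 0.85 (SE; limma adjusted p = 0.00872). With 549 and 557 at background on most of their arrays, it was at least 9.49-fold higher. The call was lost without replicate 1 of LA1589 (3.002, adjusted p = 0.0784), with the spiked control signal of the arrays as a covariate (2.26, adjusted p = 0.0899) and with the landrace means as the error (adjusted p = 0.376).

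Replicates of one landrace disagreed widely for CHI9. Landrace 571 read 3.31, 3.88 and 6.60, and landrace 572 read 4.96, 2.88 and 4.63. Landrace 3806 held arrays of 0.69, 5.67 and 2.84, and 3815 held 2.33, 1.69 and 4.996. In 557 the arrays read 5.12, 0.67 and 0.24, and only replicate 1 was above background. The remaining landraces were low, with means of 1.70 in 3836, 1.63 in 560, 0.85 in 3842 and 0.50 in 549. The SD of CHI9 pooled within cultivars was 1.53, larger than that of 99.9% of the tested probe sets, whose median was 0.33. The landrace means spanned 4.10, and the F test missed the threshold (adjusted p = 0.0605). The single arrays that decided this were 4: the adjusted p was 0.00937 without replicate 1 of 557, 0.0488 without replicate 3 of 557, 0.0231 without replicate 1 of 3806 and 0.0338 without replicate 2 of 3806. Without replicate 1 of 571 the range was 4.74.

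CHI17, the third chitinase gene, had its highest landrace means in 3815, 560 and 549. In LA1589 it read 4.41, 4.17 and 5.17. Over the landrace arrays the lowest signal was 0.08, the median 1.48 and the highest 7.01, and the lowest LA1589 array exceeded 25 of the 27. LA1589 averaged 4.58 ± 0.52 (SD, n = 3) against 2.14 over the landraces, a difference of 2.44 ± 0.73 (SE; limma adjusted p = 0.0227), and with 557 at background on 2 of its 3 arrays it was at least 4.93-fold higher. One landrace, 3815, had a higher mean than LA1589, at 4.81 ± 1.92. The call was lost without replicate 1 of LA1589 (2.53, adjusted p = 0.0842), without its replicate 3 (2.15, adjusted p = 0.133), without landrace 3806 (2.23, adjusted p = 0.0536) and with the landrace means as the error (adjusted p = 0.603). Without replicate 1 of 557 it was 2.63 (adjusted p = 0.000813).

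Among the landraces CHI17 was called by the F test (adjusted p = 0.0165), with means from 0.46 in 3806 to 4.81 in 3815, a range of 4.35 or at least 18.5-fold with arrays at background raised to it. Landrace 3815 read 7.01, 3.98 and 3.45. Landraces 560 (4.11, 4.08 and 2.75) and 549 (2.83, 3.44 and 3.19) followed. All 9 arrays of these 3 landraces lay at 2.75 or above, while CHI17 was at or below 1.97 on every array of 571, 572, 3806 and 3836. In 3842 it read 3.10, 0.25 and 1.06, and in 557 it read 5.47, 0.09 and 0.54. The range was 3.26 without replicate 1 of 3815 and 5.04 without its replicate 3. The pooled SD within cultivars was 1.30, above that of 99.8% of the tested probe sets, and it was 0.92 without replicate 1 of 557.

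TSI-1 was at or near background in most fruit. Its signal was above background on 4 of 30 arrays, 2 of 557 and 2 of 3815. In LA1589 it read -0.03, 0.08 and 0.11, below background on all 3 arrays, and the difference from the landraces was -0.56 ± 0.55 (SE; limma adjusted p = 0.572). The exception was landrace 557, with 6.19, 0.43 and 1.53. All other arrays lay at 0.94 or below. The F test gave an adjusted p of 0.128 over a range of 2.72. Without replicate 1 of 557 the range was 0.98 and the adjusted p was 0.0225, and the call then rests on signals near background.

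**Figure D2:**
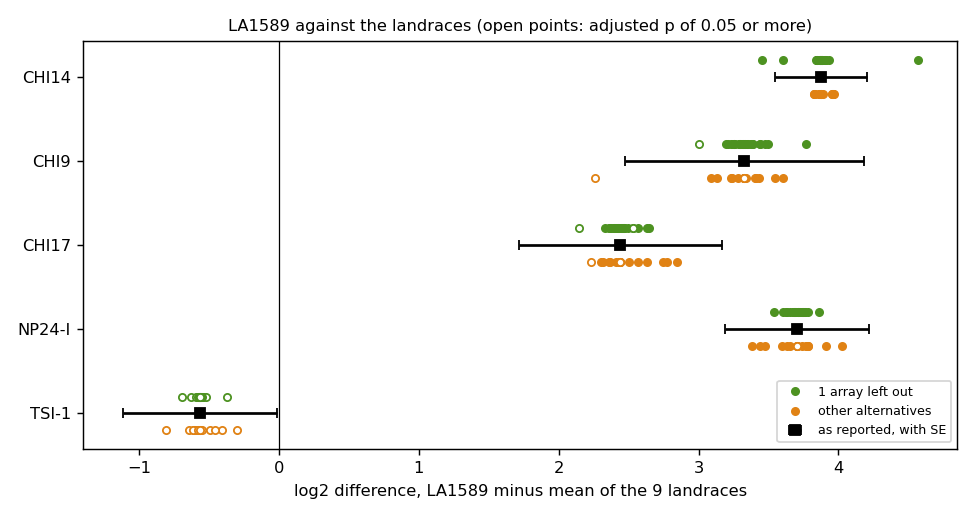
Log2 difference of LA1589 minus the mean of the 9 landraces for each gene, as reported with its SE (black squares), with 1 array left out (green) and under the other alternatives (orange), where open points have an adjusted p of 0.05 or more. CHI14 has no open point and stays between 3.46 and 4.57, NP24-I, CHI9 and CHI17 have open points, and all points of TSI-1 are open.

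Each landrace was also set against the mean of the other 8, to see which of them stood out. Of the 45 combinations of gene and landrace, 6 were called and 13 had an unadjusted p under 0.05. NP24-I gave 4 of the 6 calls, being higher in 571 and 3815 and lower in 549 and 3836. The shares of all tested probe sets called in these contrasts were 0.747% for 571, 8.3% for 3815, 1.5% for 549 and 3.8% for 3836. In 571, NP24-I averaged 9.38 against 6.48 in the other 8, a difference of 2.90 ± 0.54 (SE, limma adjusted p = 0.0118), which was lost without replicate 2 (adjusted p = 0.0901) or replicate 3 of 571 (adjusted p = 0.112). In 3815 it was higher by 1.86 (adjusted p = 0.0341), a call lost without any 1 of its 3 arrays (adjusted p from 0.0539 to 0.308). In 549 it averaged 4.22 against 7.13 in the other 8, a difference of -2.91 ± 0.54 (SE, adjusted p = 0.00658), and without replicate 3 of 549 it was -1.96 (adjusted p = 0.132). In 3836 it was lower, with a difference of -2.10 (adjusted p = 0.0342), and this call too was lost without any 1 of its arrays (adjusted p from 0.0945 to 0.15). Leaving out 1 array leaves 2 in the landrace. With the spiked signal as a covariate, NP24-I lost its call in 571 (3.53, limma adjusted p = 0.244) and in 3836 (-2.44, adjusted p = 0.0991).

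The chitinase CHI17 gave 1 call, in 3815, where it averaged 4.81 against 1.81 in the other 8 landraces, higher by 3.01 ± 0.76 (SE, limma adjusted p = 0.0161). Without replicate 1 of 3815 the difference was 1.91 (adjusted p = 0.164), without replicate 2 it was 3.42 (adjusted p = 0.055), and without replicate 3 it was 3.69 (adjusted p = 0.0367). TSI-1 gave the last call, in 557 at 2.36 (adjusted p = 0.00601), where 23.4% of all tested probe sets were called. That value was 0.63 without replicate 1 (adjusted p = 0.0287), 3.51 without replicate 2 and 2.95 without replicate 3. The call of TSI-1 in 557 was lost with array weights (1.41, limma adjusted p = 0.0892). It was also lost with the spiked signal as a covariate (1.57, adjusted p = 0.457). None of the 5 genes was called in 3806, 3842, 560 or 572, where the contrasts called 5.76%, 0.159%, 22.6% and 14% of all tested probe sets. Without replicate 1 of 557 there were 8 calls, the added ones being CHI17 in 560 (1.91, adjusted p = 0.0107) and CHI9 in 572 (2.18, adjusted p = 0.0495). CHI14 and CHI9 had no call with all arrays. The largest CHI9 difference was 2.48 ± 0.89 (SE) in 571, with an unadjusted p of 0.0106 and an adjusted p of 0.224.

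**Figure D3:**
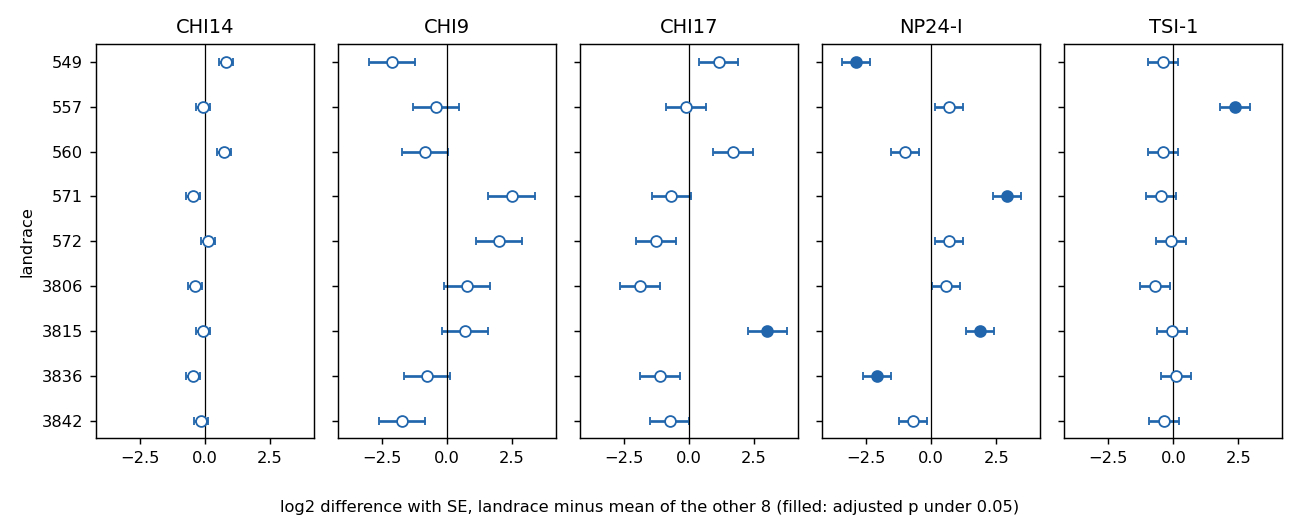
Log2 difference, with SE, of each landrace minus the mean of the other 8 for each gene, where filled points have an adjusted p under 0.05. The filled points are NP24-I in 571, 3815, 549 and 3836, CHI17 in 3815 and TSI-1 in 557.

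Replicate 1 of 557 departed from replicates 2 and 3 in both directions, and several genes of the same kind were high on it at once. On this array 248 probe sets, 2.47% of those tested, lay more than 2 (log2) above the mean of replicates 2 and 3. On the other 29 arrays, each set against the rest of its cultivar, this share ran from 0% to 0.717% with a median of 0.159%. A further 172 probe sets lay more than 2 below the mean of replicates 2 and 3, where no other array had more than 55. Of the 5 genes 3 were among the 248. TSI-1 was 5.21 above its mates, CHI17 5.15 and CHI9 4.66, which put them at ranks 8, 9 and 14 of 10038. NP24-I was 1.32 above and CHI14 0.14. These are 1 array against 2, with no test.

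Of 54 other defence genes that were measured, 6 were also more than 2 above their mates on that array. PR-P2, a PR-4 protein, read 7.02 against 0.43 and 0.31 in replicates 2 and 3, rank 3 of all. CHI3, a further chitinase, read 6.54 against 0.28 and 0.09, rank 6. The glucanase gene GluB read 3.72 against 0.62 and 0.09. The other 3 were cevi19 and CEVI-1, which belong to the list of peroxidases and subtilases, and the kinase gene MPK3. WRKY2, also among the 54, was lower there, at 0.80 against 4.23 and 3.14. Named genes outside the lists rose too, such as TLRP (7.22 against 0.64 and 0.67) and GP1 (4.73 against 0.62 and 1.28). LE16, a lipid transfer protein gene and 1 of the 3 markers of epidermis, read 3.99 there against 0.53 and 0.59. The remaining epidermis markers, TSW12 (0.39 against 1.08 and 0.31) and ltpg1 (0.91 against 0.53 and 0.73), were below that array's background of 2.41. The mean of the 3 was 1.77, the highest of any landrace array, with LE16 alone of them above background. The spiked control signal of 557 replicate 1 was 10.7, the highest of the 30 arrays. The part of epidermis and of the array's quality in these values was not tested.

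**Figure D4:**
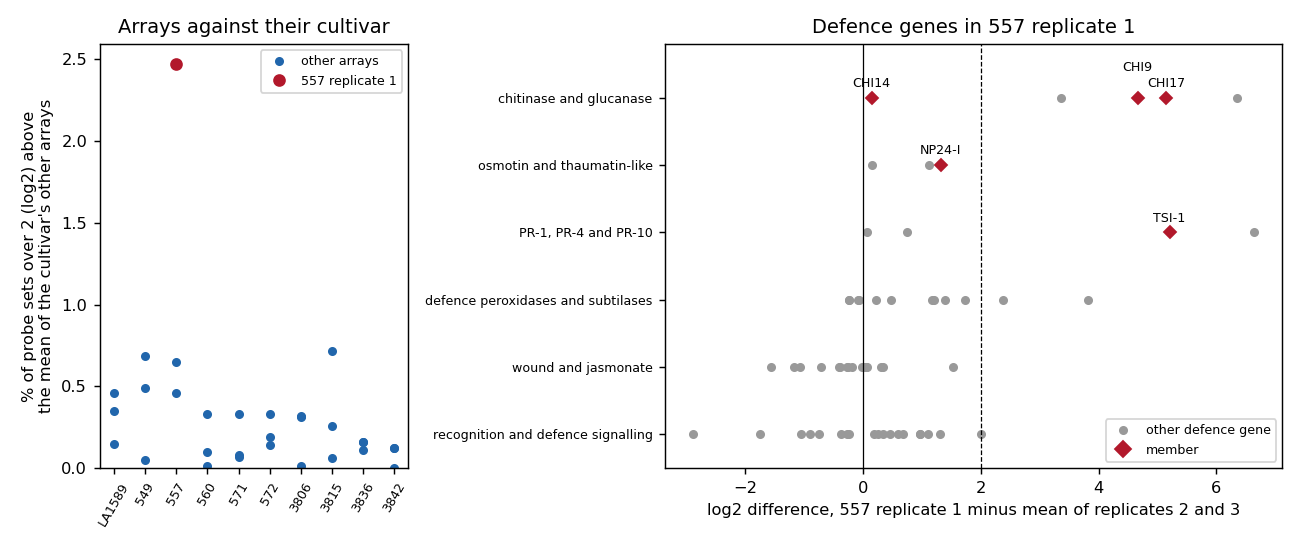
Left, the share of probe sets that lay more than 2 (log2) above the mean of the cultivar's other arrays, for each of the 30 arrays. Right, the log2 difference of 557 replicate 1 minus the mean of replicates 2 and 3 for the 5 genes (red diamonds) and the other defence genes (grey), by list; 557 replicate 1 stands alone at 2.47%, and CHI17, TSI-1 and CHI9 lie at 4.66 to 5.21.

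The 5 genes did not share 1 pattern over the cultivars. CHI9 and NP24-I were the pair most alike, with r = 0.90 (Spearman's rho 0.85) over the 10 cultivar means, 0.84 over the 9 landraces and 0.76 without the 2 cultivars farthest from the median of CHI9. Both were highest in LA1589, next highest in 571, and lowest in 549. Between replicates of a cultivar the link was weaker, with r = 0.42 over the deviations of the 30 arrays from their cultivar means. CHI17 went with neither: its r was 0.13 with CHI9 and 0.28 with NP24-I over the 10 means. CHI14 and CHI17 had r = 0.62. LA1589, 549 and 560 were the 3 highest for CHI14 and among the 4 highest for CHI17, though CHI14 averaged only 1.63 in 549 and 1.56 in 560. In 3815, where CHI17 was highest at 4.81, CHI14 averaged 0.85. CHI14 with CHI9 had r = 0.47 in all 10 cultivars and -0.49 in the landraces alone. These are descriptions of 10 points that share arrays and normalisation.

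GluB, a glucanase gene from the same list as the chitinases, was also set beside CHI9 and NP24-I. Its r over the 10 means was 0.82 with CHI9 and 0.84 with NP24-I. Without the 2 cultivars farthest from the median of CHI9 or of NP24-I these were 0.48 and 0.76. The r was 0.77 with CHI9 over the deviations within cultivars. GluB read 4.24, 1.11 and 4.26 in LA1589, and its highest landrace mean was 2.17 in 571. It was higher in LA1589 by 2.15 ± 0.59 (SE, limma adjusted p = 0.0141). That call was lost without replicate 1 of LA1589 (1.63) or replicate 3 (1.62), while without replicate 2 the difference was 3.20. It was also lost with the spiked signal as a covariate (1.42, adjusted p = 0.132) and with the landrace means as the error (adjusted p = 0.0862).

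Neighbouring genes on the chromosome behaved unalike. ER1 lies 758 bases from NP24-I, from 66039834 to 66040926 on chromosome 8, and had r = 0.89 with it over the cultivar means (rho 0.77, and 0.83 in the landraces alone), the highest of 196 probe sets of named genes other than the 5. It read 8.56, 6.25 and 7.94 in LA1589 and averaged 7.58 ± 1.197 (SD, n = 3) against 4.23 in the landraces, higher by 3.36 (limma adjusted p = 0.000897). Among landraces its mean was lowest in 549, at 2.49, and highest in 571, at 7.07 (F test, adjusted p = 0.0045). The thaumatin-like genes PR5 (listed as LOC543878) and PR-5 lie 7858 and 26299 bases from NP24-I. Neither shared its signal, with PR5 above background on 2 arrays and PR-5 on 0. CHI3 lies 2299 bases from CHI17, from 62767512 to 62768601 on chromosome 2. The pair had r = 0.63 over the cultivar means and 0.90 over the deviations of single arrays within cultivars (0.84 without replicate 1 of 557), but CHI3 was called in neither comparison (LA1589 difference 0.30, adjusted p = 0.88). Cross-hybridisation between such related genes was not tested.

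**Figure D5:**
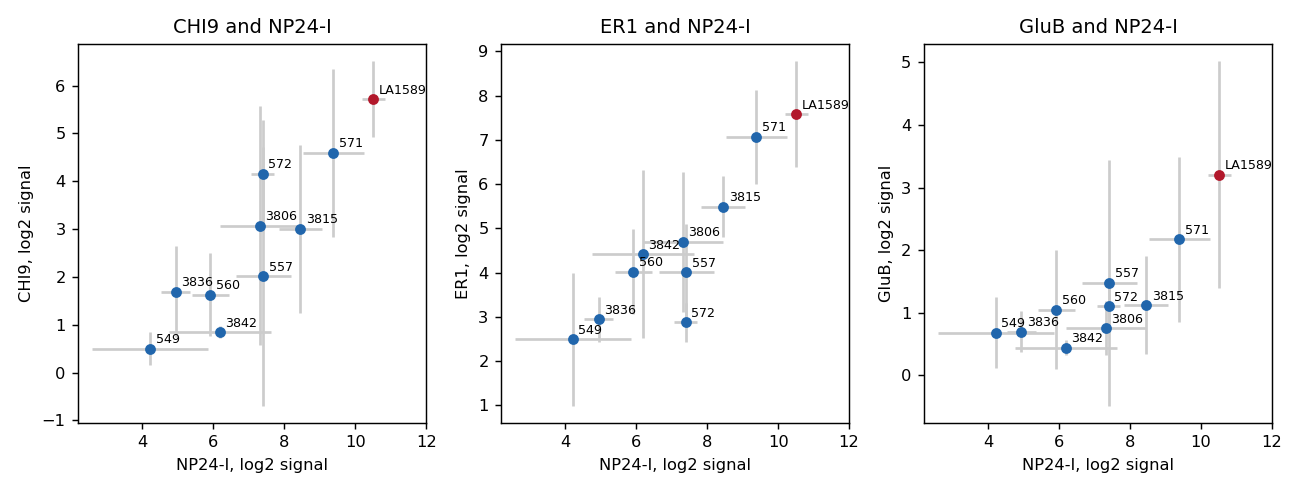
Cultivar means of CHI9, ER1 and GluB against those of NP24-I, as log2 signals with SD bars over 3 arrays, LA1589 in red and the 9 landraces in blue. LA1589 is highest and 571 next in all 3 panels, and the bars show how far single arrays lie from these means.

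Other genes with the most similar levels were sought among 196 probe sets of named genes with a mean above the median and an SD of cultivar means of at least 0.5. For CHI9 the highest r over the 10 means was with FPPS1, a farnesyl diphosphate synthase (0.85), then ER1 (0.73) and AI (0.70). In the landraces alone these were 0.77, 0.56 and 0.60, and without replicate 1 of 557 they were 0.73, 0.73 and 0.67. For NP24-I, FPPS1 (0.84) and EIN2 of ethylene signalling (0.73) followed ER1, with 0.75 and 0.51 in the landraces alone. CHI14 was nearest to PCNA, the sliding clamp of DNA replication (0.83), to HRBP1 (0.81) and to AG1 (0.79). In the 9 landraces alone these were 0.48, 0.63 and 0.83. CHI17 was nearest to the endoglucanase gene Cel1 (0.83), UREF (0.75) and PCNA (0.74). These were 0.86, 0.65 and 0.64 in the landraces alone, and 0.66, 0.77 and 0.71 without replicate 1 of 557. For TSI-1 the nearest were CTR4 (0.87), VAHOX1 (0.78) and ail (0.74). Without replicate 1 of 557 these were only 0.36, 0.53 and 0.59, and the Spearman's rho of CTR4 was 0.12.

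The rest of the defence genes did not move as a block in LA1589. Of the 54 others in 6 lists, 4 were higher and 5 lower, and 45 did not pass. These 9 calls are close to the share over all tested probe sets, 15.5% in either direction and 8.58% higher. Their median difference was -0.03, against -0.00 over all tested probe sets, and 26 of them were above background on fewer than 15 arrays. Among the other 2 genes of the chitinase and glucanase list, GluB passed and CHI3 did not. Of the 3 genes beside TSI-1 in the PR-1, PR-4 and PR-10 list none passed, with differences of 0.49 for PR-P2 (adjusted p = 0.816) and 0.11 for the PR-1 gene PR1b1 (adjusted p = 0.917). Of the 2 thaumatin-like genes beside NP24-I none passed either. Of 12 peroxidase and subtilase genes, the subtilase gene P69A was higher by 0.85 (adjusted p = 0.0204) and 0.18 without replicate 1 of LA1589 (adjusted p = 0.635), and it was above background on 1 array. The peroxidase gene TPx1 fell by 0.48 (adjusted p = 0.0145).

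Of 19 genes of recognition and defence signalling, 2 were higher and 3 lower in LA1589, beside the same 15.5% over all tested probe sets. The higher ones were the kinase gene MEK1 (0.95, adjusted p = 0.017) and EREB (adjusted p = 0.0493), which was above background on 2 of 30 arrays, so that its difference is between signals mostly at background. WRKYIId-1, a transcription factor gene, had means of 2.36 and 4.25, a difference of -1.89 (adjusted p = 0.00275). Eix1, a receptor-like protein for a fungal xylanase, had means of 1.45 and 3.05, a difference of -1.61 (adjusted p = 0.0392), and MKK2, a kinase gene, had a difference of -1.26 (adjusted p = 0.000448). Of 16 genes of wounding and jasmonate, COI1, part of the jasmonate receptor, fell by 0.81 (adjusted p = 0.0463). MEK1, Eix1 and TPx1 each lost the call without 2 of the 3 LA1589 arrays taken singly. COI1 and EREB lay close to the threshold and lost the call in 22 and 25 of the 30 fits that left out 1 array, and without replicate 1 of LA1589 the COI1 difference was -0.36. With the landrace means as the error P69A alone of these 9 genes kept its call, and with the spiked signal as a covariate MEK1, WRKYIId-1 and MKK2 alone did.

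Among the landraces the F test called 18 of these 54 genes, beside 2 of the 5 members. The share over all tested probe sets was 39.1%, and both counts lie near or below it. Without replicate 1 of 557 the F test called 14 of the 54, and 4136 of all tested probe sets. Genes of the wound and jasmonate list made up 8 of the 18. Among them HPL, a hydroperoxide lyase, ran from 4.99 in 3815 to 7.08 in 3842 (adjusted p = 0.0157). MYC2, a transcription factor of jasmonate signalling, ran from 5.20 in 560 to 7.03 in 3836 (adjusted p = 0.00565). The lipoxygenase gene loxD was lowest in 557, at 0.21, and highest in 3806, at 2.31 (adjusted p = 0.0193). That call was lost without replicate 2 (adjusted p = 0.0774) or replicate 3 (adjusted p = 0.0746) of 3806. It was above background on 15 of 30 arrays. Signalling genes made up 7, with Eix1 from 1.10 in 3815 to 5.01 in 3806 (adjusted p = 0.00295) and MPK3 from 0.55 in 3815 to 3.64 in 3806 (adjusted p = 0.0197). Eix1 and MPK3 were lowest in 3815 and highest in 3806, which had the highest and the lowest mean of CHI17 among the landraces. No correlation of either gene with CHI17 was computed, and a link was not tested. The call of MPK3 was lost without replicate 1 (adjusted p = 0.0718) or 3 (adjusted p = 0.0661) of 3806. GluB, CHI3, PR-P2 and PR1b1 were not called, with adjusted p from 0.281 to 0.751.

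Spiked control signal and the gap between 3′ and 5′ probe sets of gapdh were set beside the cultivar means as measures of hybridisation and RNA quality. The spiked signal averaged 9.75 ± 0.36 in LA1589 and ran from 8.38 ± 0.30 in 571 to 10.4 ± 0.25 in 557 among the landraces (SD, n = 3 each). The gapdh gap was 2.24 ± 0.35 in LA1589, the highest of the 10 cultivar means, and from 1.56 to 2.04 in the landraces. Over the 10 means, r with the spiked signal was between 0.03 and 0.20 for CHI14, CHI9, CHI17 and NP24-I and 0.64 for TSI-1, and r with the gapdh gap was between 0.19 and 0.44. Their part in the differences was tested only through the fit with the spiked signal as a covariate.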

How the data were processed

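The authors deposited normalised log2 signals of 10209 probe sets on 30 arrays; their method is not given in the sources used here. No source states the log base, taken as 2 because the deposited spiked control signals rose with log2 of the usual amounts of these controls at a median slope of 0.89 (0.49 to 1.11 over arrays). Array medians differed by 0.502, above a limit of 0.5, so values were quantile normalised. The 171 control probe sets were left out, and 10038 were tested. Arrays give no counts: their number limits the precision. Apart from the fit with cultivar means as the error, SE and p-values measure the spread between the 3 replicates of a cultivar. That spread is 1 moderated value per probe set, pooled over the cultivars in the fit.

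Tests used limma 3.58.1 (statmod 1.5.0, R 4.3.3), 1 mean per cultivar, two-sided, with Benjamini-Hochberg adjustment over all tested probe sets and a threshold of 0.05: LA1589 minus the mean of the 9 landraces (30 arrays, 20 residual degrees of freedom), the F test of equal landrace means and each landrace minus the other 8 (27 arrays, 18 residual degrees of freedom). The fits were tested on simulated data. Python 3.11.15 with pandas 2.3.3, scipy 1.17.1 and matplotlib 3.10.9 did the rest. A fold is a bound, with arrays at background raised to it, where at least 1 landrace was at or below background on most of its arrays.

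Symbols come from the platform annotation (909 probe sets named, 885 found in the reference gene table of SLM_r2.1, which gave positions and synonyms). The 5 genes and the lists were chosen with earlier results of these data known. From each list up to 4 passing genes with the largest difference or range and up to 2 not passing with the highest mean were named, and per gene the 3 most similar named probe sets; genes of 557 replicate 1 and further passing genes of a list were named after their values were seen. Genes with several probe sets were represented by the brightest. Alternatives were the deposited values, median centring, no dim probe sets, a trend with a robust prior, array weights, a replicate block, the spiked signal as a covariate, arrays or landraces left out in turn, and cultivar means as the error.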

Additional observations from a re-analysis of the deposited data

How the results depend on the processing

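None of the reported differences changed its direction under these alternatives. Replicate numbers did not pair the arrays (mean r of deviations -0.01 for the same number and 0.00 for others; 7 of 30 arrays were nearest to their own number), and with a replicate block 1543 probe sets were called for LA1589 and 3803 among landraces, against 1560 and 3921 without it. For LA1589, leaving out 1 array gave 888 to 1774 calls, and differences of 3.46 to 4.57 for CHI14, 3.54 to 3.86 for NP24-I, 3.002 to 3.77 for CHI9, 2.15 to 2.65 for CHI17 and -0.69 to -0.37 for TSI-1. With cultivar means as the error 111 probe sets were called, and the differences of 3.71 for NP24-I, 3.33 for CHI9 and 2.44 for CHI17 passed no longer. Nor did CHI17 without landrace 3806 (2.23) or CHI9 with the spiked covariate (2.26). Median centring moved the median LA1589 difference of all probe sets to 0.11 and the share of calls that were higher to 65.9%, from 55.2%. Of the other defence genes, 4 were higher as reported, against 2 without the dimmest 25% of probe sets, 1 with the spiked covariate, 1 with cultivar means as the error and 1 to 5 with 1 array left out. The 5 lower became 3 with array weights, with the spiked covariate and without landrace 3806, 3836, 3842 or 571, became 0 with cultivar means as the error, and 2 to 6 with 1 array left out. Among landraces, the adjusted p of CHI14 passed with median centring (0.0325), array weights (0.00725), the replicate block (0.0366) and the spiked covariate (0.0295). That of CHI9 passed with deposited values (0.0325), median centring (0.0255), no dim probe sets (0.0412), array weights (0.00152) and the spiked covariate (0.0193), and that of TSI-1 with median centring (0.0332). With 1 array left out, these ran from 0.0261 to 0.147 for CHI14, 0.00937 to 0.123 for CHI9, 0.000366 to 0.0439 for CHI17, 0.000108 to 0.000534 for NP24-I and 0.00483 to 0.168 for TSI-1. The F test called 6074 probe sets after median centring and 3469 to 4176 with 1 array left out. It called 29 other defence genes after median centring, 11 with the spiked covariate and 12 to 18 with 1 array left out. For single landraces, 11 combinations were called with array weights, 3 with the spiked covariate and 4 to 8 with 1 array left out, an alternative added after the data were seen. The cause of these shifts was not tested. Limits are 3 arrays per cultivar, 1 wild accession, 1 probe set per gene designed on cultivated tomato, and signals near background for TSI-1 and for CHI14 in the landraces.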
